A study of Mus with 12 samples.

Results

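Bmp2 encodes bone morphogenetic protein 2 (BMP2), a secreted growth factor of the TGF-β superfamily. Its transcript was measured by RNA sequencing of whole blood from 12 mice and is 1 of 25247 genes in the deposited table. The table lists it as ENSMUSG00000027358, a protein-coding gene on the + strand of chromosome 2 from 133552159 to 133562885, a span of 10727 bases that 0 other genes of the table overlap. The submitters' processing notes name the build mm8, yet the table's coordinates overlap the GRCm38.p6 record of the same symbol for 96.3% of 21469 symbols matched to RefSeq, and the start of Bmp2 is the same base there. The coordinates are therefore given as the table has them and read as GRCm38. Bmp2 was chosen by its FPKM values in these libraries, which were higher in the mice given mesenchymal stem cells (MSC) than in the DNCB mice, so its levels and fold changes are a description and carry no p-value in any comparison, since each comparison shares libraries with that choice.

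The animals were female BALB/c mice, bought at 6 weeks of age, in 4 groups of 3, with 1 library per mouse. The Solvent mice received the acetone and olive oil vehicle on the shaved back and the right ear. The DNCB mice were sensitised there with 1% 1-chloro-2,4-dinitrobenzene (DNCB), a contact sensitiser, and challenged repeatedly with 0.5% DNCB, which gives an atopic dermatitis-like disease. The scMSC mice received the same DNCB course and repeated doses of 2000000 human umbilical cord MSC in 100 µL, injected under the skin beside the lesion. The scivMSC mice received DNCB and the same cell dose, with 50 µL injected under the skin and 50 µL into the tail vein. Both MSC groups therefore carried DNCB, and no group received MSC without it, so a change with MSC alone cannot be told apart from a change that needs DNCB. The 6 sequenced mice of the MSC groups had their own immune system and received cells of another species. The 3 sequenced mice per group are the limit on every spread given here. The labels name no sequencing batch or date.

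BMP2 is made as a precursor that proteases of the furin family cleave, and is secreted as a dimer. It binds type I and type II serine/threonine kinase receptors, which phosphorylate SMAD1, SMAD5 and SMAD9; these join SMAD4 and switch on target genes such as the Id family. Extracellular antagonists such as noggin and chordin bind the ligand, and SMAD6, SMAD7 and SMURF proteins damp the signal inside the cell. BMP2 is best known for inducing bone and cartilage. Related signals of the BMP family act in the liver on hepcidin and iron balance, and in the differentiation of blood-forming cells. In blood, whole cells of many kinds are lysed together, and an mRNA level there says nothing of the protein in plasma.

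The libraries held between 52179764 and 65139421 estimated counts. About 4 counts may stand for 1 sequenced fragment, since 29.0% of all values from 1 to 12 in the table were exactly 4, which would make 13044941 to 16284855 fragments per library. Haemoglobin genes took 91.3 to 95.6% of summed FPKM (fragments per 1000 bases of gene and 1000000 fragments). The scivMSC replicate 2 library stood apart, with 5843407 counts outside the haemoglobin genes, 11806 genes with at least 4 counts and a TMM factor of 0.3304, against a range over the other libraries of 6404027 to 12858063 counts, 13159 to 17350 genes and factors of 0.4882 to 1.872. TMM is the trimmed mean of M values, a scaling that sets the middle of the gene distribution level between libraries. In the main scale, total counts, the median log2 fold change of the 5527 genes tested was 0.06 between DNCB and Solvent. It was -0.63 between scMSC and DNCB, and -1.53 when scivMSC was set against DNCB. With TMM the 3 medians were -0.09, 0.06 and 0.04.

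Bmp2 was near the bottom of what these libraries can measure in mice without MSC and well above it in mice with MSC. In the Solvent libraries its level was 0.0792, 0.228 and 0.0306 FPKM in replicates 1, 2 and 3. DNCB mice had 0.120, 0.166 and 0.0335 FPKM. The Solvent and DNCB values interleaved, with the highest and the lowest of the 6 both in the Solvent group. The level with MSC was 0.851, 1.99 and 1.90 FPKM in scMSC mice and 1.80, 1.39 and 1.31 FPKM in scivMSC mice. The scivMSC values all fell inside the range of the scMSC values, and scMSC replicate 1 was the lowest of the 6 libraries with MSC. Every library with MSC lay above every library without, and the gap from the highest of the latter to the lowest of the former was 3.74-fold.

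**Figure D1:**
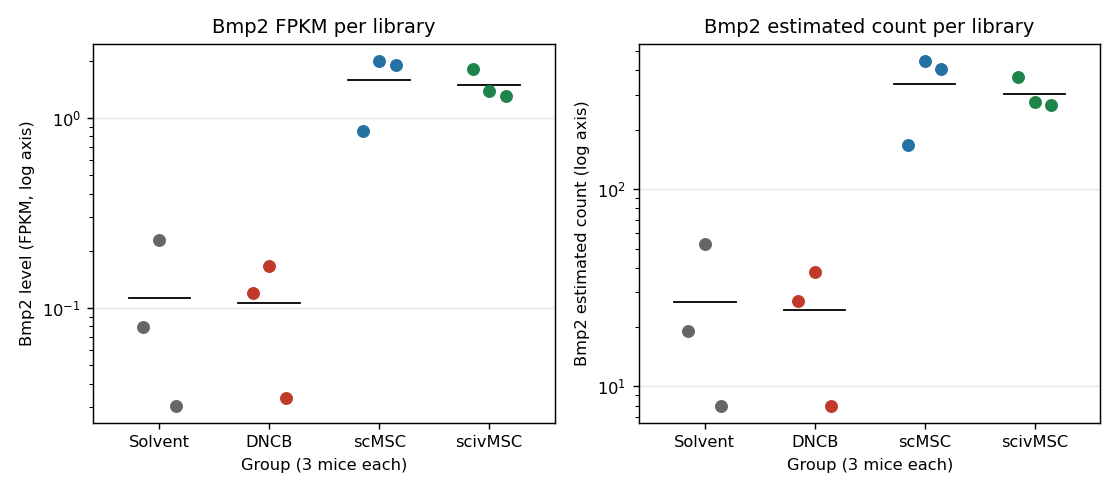
Bmp2 in each of the 12 libraries, as FPKM (left) and as estimated count (right), both on log axes; each point is 1 mouse and each black line the mean of 3. The 6 libraries with MSC sit between 0.851 and 1.99 FPKM and the 6 without between 0.0306 and 0.228 FPKM, and within each of these sets the groups overlap.

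The estimated counts behind these levels were 19, 53 and 8 for Solvent and 27, 38 and 8 for DNCB mice. With MSC they came to 167, 445 and 407 (scMSC) and 370, 275 and 266 (scivMSC). At 4 counts per fragment the lowest libraries held 2 fragments each, and a single fragment of Bmp2 was worth 0.0153 to 0.0204 FPKM. Differences among the libraries without MSC therefore rest on a handful of fragments. Summed over the 3 libraries of a group, Bmp2 had 0.422 fragments per 1000000 in Solvent (95% exact Poisson interval 0.258 to 0.652) and 0.412 in DNCB (0.245 to 0.649). It had 6.03 fragments per 1000000 in scMSC (5.31 to 6.82) and 5.66 in scivMSC (4.95 to 6.44). These intervals cover counting error only and not the spread between mice, and they rest on the assumed 4 counts per fragment. Ranked within its library among all 25247 genes, Bmp2 was at percentile 35.0 to 59.6 in mice without MSC and at percentile 82.6 to 94.2 in mice with MSC.

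As group means the order was scMSC with 1.58 FPKM ± 0.632 (SD, n = 3), scivMSC with 1.50 ± 0.265 (SD, n = 3), Solvent with 0.112 ± 0.103 (SD, n = 3) and DNCB with 0.107 ± 0.0675 (SD, n = 3). The first and second in this order did not differ beyond their spread, and neither did the last pair. The step between scivMSC and Solvent was the one at which neighbours separated. The fitted log2 fold change was 3.84 (SE 0.68) for scMSC against DNCB, a 14.3-fold higher level, and 3.77 (SE 0.68), or 13.6-fold, for scivMSC against DNCB. Against Solvent it was 3.79 (SE 0.68) for scMSC and 3.72 (SE 0.68) for scivMSC. DNCB against Solvent gave -0.05 (SE 0.65) and scivMSC against scMSC gave -0.07 (SE 0.59), each far inside its standard error. Without scivMSC replicate 2, the library that stood apart, scivMSC against DNCB gave 3.83. The DNCB against Solvent value turned to 0.95 without Solvent replicate 2, whose 53 counts were the most of any library without MSC.

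Bmp2 separated the groups in each comparison of an MSC group with a group without MSC. Of all tested genes, 5.54% had every scMSC library above every DNCB library and 5.41% every scivMSC library above every DNCB library. The same held for 7% of genes between scMSC and Solvent and for 6.1% between scivMSC and Solvent. All 6 libraries with MSC above all 6 without was a pattern of 67 genes, Bmp2 included, which is 1.21% of the genes tested. Among these 67 genes the ratio of mean FPKM with MSC to mean FPKM without ran from 1.12 to 5.95 over the other genes, with a median of 1.95, and was 14.0 for Bmp2, the first in order. Bmp2 was picked for this pattern, so its presence on the list shows nothing further. It also passed the filter of 1 FPKM in at least 3 libraries through 5 of its 6 libraries with MSC.

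The separation was present on every scale computed, while the order of the MSC groups was not the same on all of them. Per 1000000 counts outside the haemoglobin genes, Bmp2 stood at 1.49, 5.94 and 0.785 in Solvent, 2.62, 2.96 and 0.782 in DNCB, 21.2, 55.8 and 48.0 in scMSC and 45.3, 47.1 and 41.5 in scivMSC. On this scale the scivMSC libraries were close together and lay inside the range of scMSC. After division by the TMM factor the mean FPKM was 0.0848 ± 0.0870 in Solvent, 0.0656 ± 0.0352 in DNCB, 1.71 ± 0.827 in scMSC and 3.09 ± 0.967 in scivMSC (SD, n = 3 each). The scivMSC mean was then 1.81-fold that of scMSC rather than 0.950-fold, and the lowest scivMSC library (2.40) lay just under the highest scMSC library (2.41). The rise of scivMSC over scMSC on the TMM scale was largest in scivMSC replicate 2, at 4.20, the library with the smallest factor. In whole blood, more RNA per cell and more cells of a type that holds the RNA cannot be told apart.

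**Figure D2:**
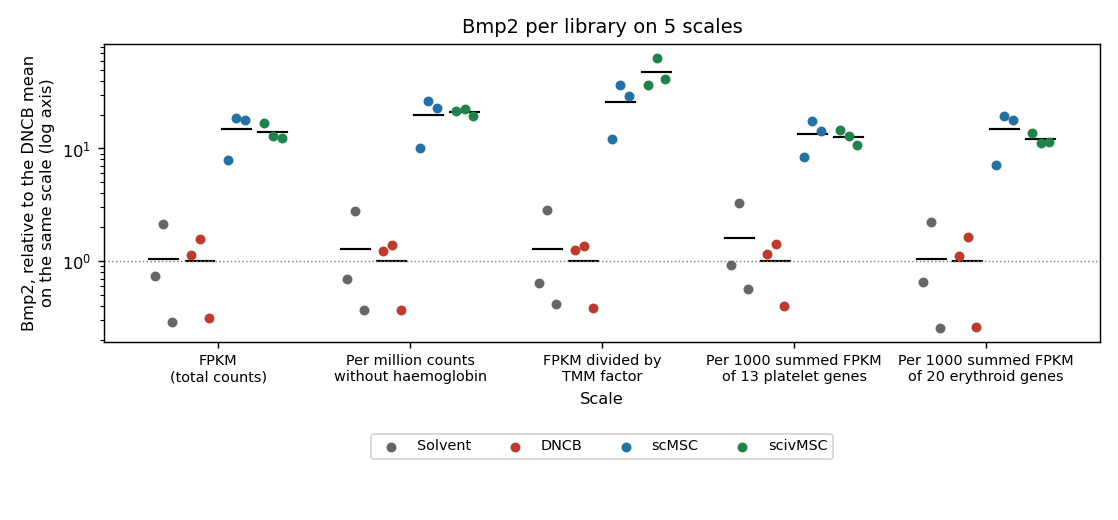
Bmp2 in each library on 5 scales, each divided by the mean of the 3 DNCB libraries on that scale (log axis); points are mice and black lines group means. On all 5 scales the 6 libraries with MSC lie above the 6 without, and the scivMSC mean lies above the scMSC mean for the TMM scale and, slightly, for counts without haemoglobin.

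Platelet and red cell transcripts were measured beside Bmp2, because both are abundant in whole blood RNA. The summed FPKM of 13 platelet genes, among them Pf4 and Ppbp, which encode chemokines of platelet granules, was 406 to 643 in Solvent, 637 to 880 in DNCB, 775 to 1006 in scMSC and 808 to 948 in scivMSC. The DNCB range thus overlapped both MSC ranges, and none of the 13 genes was at 0. Bmp2 per 1000 FPKM of platelet genes was 0.123, 0.435 and 0.0755 in Solvent and 0.154, 0.189 and 0.0526 in DNCB. It was 1.10, 2.33 and 1.88 in scMSC and 1.90, 1.72 and 1.42 in scivMSC. The ratio of means to DNCB was 13.4 for scMSC and 12.7 for scivMSC on this scale, against 14.8 and 14.0 in FPKM.

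The 20 erythroid genes analysed, led by Alas2, the first enzyme of haem synthesis in red cells, and Bpgm, which makes the haemoglobin ligand 2,3-bisphosphoglycerate, summed to 4677 to 5530 FPKM in Solvent and 4663 to 5865 in DNCB. They summed to 4673 to 5442 in scMSC and 5242 to 6012 in scivMSC, and all 4 ranges overlapped. Alas2 alone averaged 4363, 4432, 4293 and 4625 FPKM in Solvent, DNCB, scMSC and scivMSC, so these sums mostly follow that 1 gene. Per 1000 FPKM of erythroid genes Bmp2 was 0.00561 to 0.0487 in the libraries without MSC and 0.156 to 0.426 in those with MSC. Endothelial genes were low apart from Pecam1 and Vwf, which platelets also express. The summed level of the 8 genes was 6.64 to 10.2 FPKM in Solvent, 6.78 to 11.5 in DNCB, 11.4 to 13.8 in scMSC and 13.2 to 16.6 in scivMSC. The 6 others, Cdh5, Kdr, Tek, Emcn, Cldn5 and Egfl7, were at most 0.341 FPKM in any library, and Tek, Emcn and Cldn5 were listed at 0 in 6 libraries each. The 9 mesenchymal and osteoblast genes analysed were at most 0.827 FPKM, and the highest of them, Col1a1, was 0.546, 0.527 and 0.759 in Solvent and 0.0641, 0 and 0 in scivMSC. The 4 keratinocyte genes analysed were at most 0.206 FPKM. The part of any of these cells in the Bmp2 level was not tested.

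Likeness of pattern was measured as the Pearson correlation (r) between log2(FPKM + 0.1) of Bmp2 and of each of the other 5526 tested genes over the 12 libraries. These are descriptions over points that share their groups, their total-count scale and the large difference between libraries with and without MSC. The median r was -0.60, with the central range from the 25th to the 75th percentile from -0.69 to -0.40, so most genes ran opposite to Bmp2 on the total-count scale. With TMM scaling the median was -0.17. There were 23 genes with r over 0.9 and 159 with r under -0.8. After each group's mean was subtracted, which leaves the differences between mice of the same group, the median r was 0.15.

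The gene most like Bmp2 was Smtn, which encodes smoothelin, a protein of the contractile cytoskeleton, with r = 0.98 (Spearman rho 0.895) over 12 libraries and 0.90 within groups. Its level was 1.15, 1.29 and 0.870 FPKM in Solvent and 1.51, 1.44 and 0.963 in DNCB. It was 2.99, 3.94 and 4.36 FPKM in scMSC and 5.39, 4.22 and 3.98 in scivMSC. As for Bmp2, the libraries with and without MSC did not overlap, replicate 3 was the lowest of the Solvent and of the DNCB libraries, and replicate 1 was the lowest of scMSC. Gata1, the transcription factor of red cell and megakaryocyte differentiation, came second with r = 0.96 (rho 0.881) over 12 libraries and 0.52 within groups. Its level was 3.11, 2.29 and 1.50 FPKM in Solvent, 2.15, 2.39 and 1.95 in DNCB, 7.06, 8.24 and 9.31 in scMSC and 9.64, 10.8 and 8.24 in scivMSC.

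The next 8 were Lhfp (r = 0.96), a gene of the tetraspan family, Pdzk1ip1 (0.95), which encodes a small membrane protein, Rab27b (0.95), a GTPase of granule secretion, and Itgb5 (0.94), the integrin β5 subunit. They were followed by Stom (0.94), which encodes the red cell membrane protein stomatin, Tsc22d1 (0.94), a regulator of transcription first found as TGF-β-induced, Cela1 (0.94), of the elastase family, and Ormdl3 (0.94), a regulator of sphingolipid synthesis. The 10 genes lie on 9 chromosomes and had rho from 0.860 to 0.944. All 10 had the 6 libraries with MSC above the 6 without, by 1.80 to 3.98-fold in the ratio of means, which is far less than for Bmp2. Lhfp would not have passed the filter without its libraries with MSC, so its split carries no weight. The within-group r of the 10 ran from 0.42 for Stom to 0.90 for Smtn. The library lowest in Bmp2 was also the lowest of its group for 10 of these 10 genes in Solvent, 9 in DNCB, 9 in scMSC and 5 in scivMSC. The library highest in Bmp2 was the highest for 3, 8, 3 and 7 of them. The share of all tested genes with the same order is not given here, so these counts cannot be read as a result about the 10. Replicate 3 also had the smallest TMM factor of the Solvent (1.128) and of the DNCB libraries (1.335), while scMSC replicate 1 had the largest of scMSC (1.067). The 10 were chosen by r over these same libraries. With TMM scaling all 10 kept an r between 0.97 and 0.99. Lhfp and Smtn have overlapping genes in the table, and it is not stated whether reads were assigned by strand, so their values may hold reads of those genes.

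At the other end were Rpl28-ps1 (r = -0.94), a ribosomal pseudogene, Mat2b (-0.91), a regulatory subunit of methionine adenosyltransferase, Resf1 (-0.91), a silencer of retroelements, Rpl10 (-0.90), a ribosomal protein gene, and Tma7 (-0.90), a gene of the translation machinery. Resf1 averaged 1.05 FPKM ± 0.267 in Solvent, 1.89 ± 0.343 in DNCB, 0.382 ± 0.0884 in scMSC and 0.211 ± 0.0485 in scivMSC (SD, n = 3 each). It passed the filter only through libraries without MSC, so its lower level with MSC carries no weight. The sign of r changed with the scale for 4 of these 5. With TMM, r was 0.53 for Rpl28-ps1, 0.24 for Mat2b, 0.43 for Rpl10 and 0.14 for Tma7, and -0.75 for Resf1. Rpl28-ps1 and Rpl10 share sequence with near-identical copies, so their levels are uncertain.

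**Figure D3:**
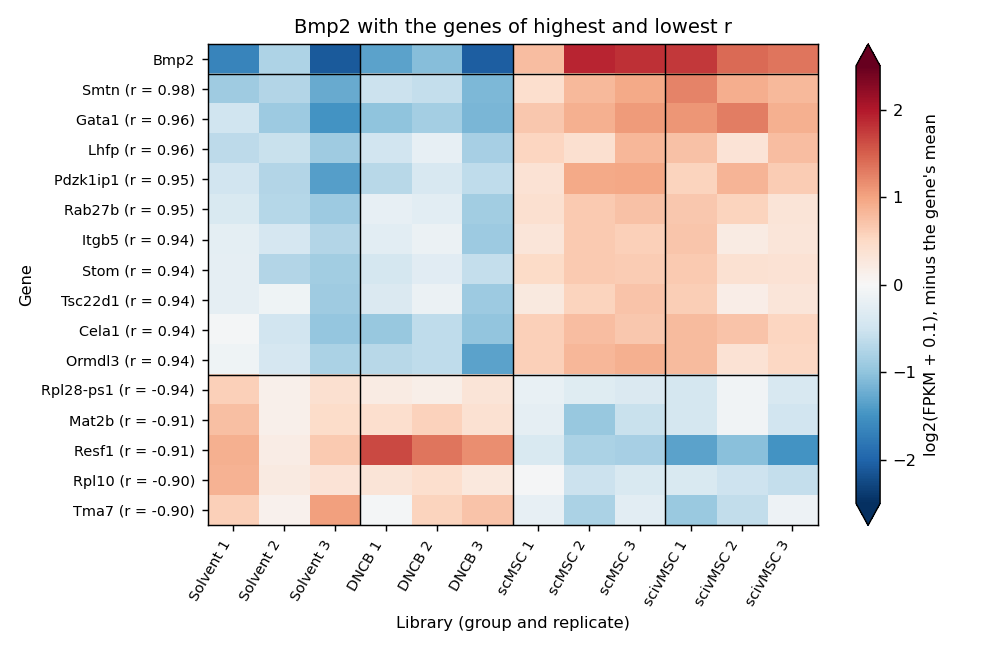
log2(FPKM + 0.1) of Bmp2, the 10 genes with the highest r and the 5 with the lowest r in each of the 12 libraries, after subtracting each gene's mean over libraries (red above, blue below). The top 11 rows change from blue to red between the DNCB and scMSC columns, with the steepest change in Bmp2, and scMSC replicate 1 is the palest scMSC column for Bmp2 and Smtn.

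Within groups, where the split by MSC has no part, the genes most like Bmp2 were Smtn (r = 0.90), Tsc22d1 (0.87), Srxn1 (0.84), which encodes the redox enzyme sulfiredoxin, Inka1 (0.83), an inhibitor of the kinase PAK4, and Mir23a (0.82), a microRNA gene. They were chosen as the highest of 5526 genes over these same libraries, so their high r shows nothing further. The DNCB libraries of Srxn1 also lay above its Solvent libraries, as those of 25% of all tested genes did. Its level was 1.87 FPKM ± 1.24 in Solvent, 4.98 ± 0.866 in DNCB, 5.58 ± 0.933 in scMSC and 7.65 ± 1.34 in scivMSC (SD, n = 3 each). Tsc22d1 averaged 32.6 ± 8.74 FPKM in Solvent, 30.9 ± 7.84 in DNCB, 60.2 ± 9.51 in scMSC and 54.5 ± 8.71 in scivMSC (SD, n = 3 each). Mir23a is the table's value for a short hairpin gene, listed at 0 in DNCB replicate 3, and is not a measure of the mature microRNA. Inka1 and Mir23a would not have passed the filter without their libraries with MSC.

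The platelet genes ran with Bmp2. Their median r was 0.66 over libraries and 0.52 within groups, where all 13 were positive, against medians of -0.60 and 0.15 for all genes compared. Pf4, at r = 0.86, was highest and Itgb3, the integrin β3 subunit, lowest at -0.12. With TMM scaling the platelet medians were 0.90 and 0.69, with 13 of 13 positive within groups. The erythroid genes had a median r of 0.12, rising to 0.71 with TMM, and within groups a median of -0.63 with 0 of 15 positive, or -0.22 with 3 of 15 positive under TMM. Within-group values rest, in the libraries without MSC, on 2 to 13.25 fragments of Bmp2. Pecam1 (0.89) and Vwf (0.57) were the 2 endothelial genes tested, with a median of 0.73, or 0.93 with TMM, above that of the platelet list. Among 9 tested regulators of red cells and megakaryocytes, the median r was -0.10 on the total-count scale but the spread was wide. Gata1 (0.96), Gfi1b (0.93) and Tal1 (0.84) were high, and Lmo2 (-0.76), Fli1 (-0.61) and Ldb1 (-0.57) were low. With TMM the median of the 9 was 0.71, beside -0.17 for all genes compared. Within groups it was 0.44 with 9 of 9 positive, or 0.60 with 7 of 9 positive under TMM.

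On the total-count scale the leukocyte lists lay near the median r of all genes, -0.60, or above it. Median r was -0.37 for 10 neutrophil genes, led in level by S100a9 and S100a8, -0.47 for 10 T cell genes, led by Trbc2 and Trbc1, -0.62 for 9 B cell genes, led by Ighm and Cd79a, -0.64 for 3 NK cell genes, led by Gzma and Prf1, and -0.68 for 6 monocyte genes, led by F13a1 and Csf1r. For 4 eosinophil and basophil genes, led by Mcpt8 and Gata2, it was 0.11. With TMM the T cell median turned to 0.03, the eosinophil and basophil median was 0.37, and the neutrophil (-0.16), B cell (-0.44), NK cell (-0.42) and monocyte (-0.62) medians stayed negative. The TMM median of all genes compared was -0.17, so the B cell, NK cell and monocyte medians lay below it. Within groups the neutrophil median was 0.39 and the B cell median 0.27, with all 10 and all 9 genes positive.

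**Figure D4:**
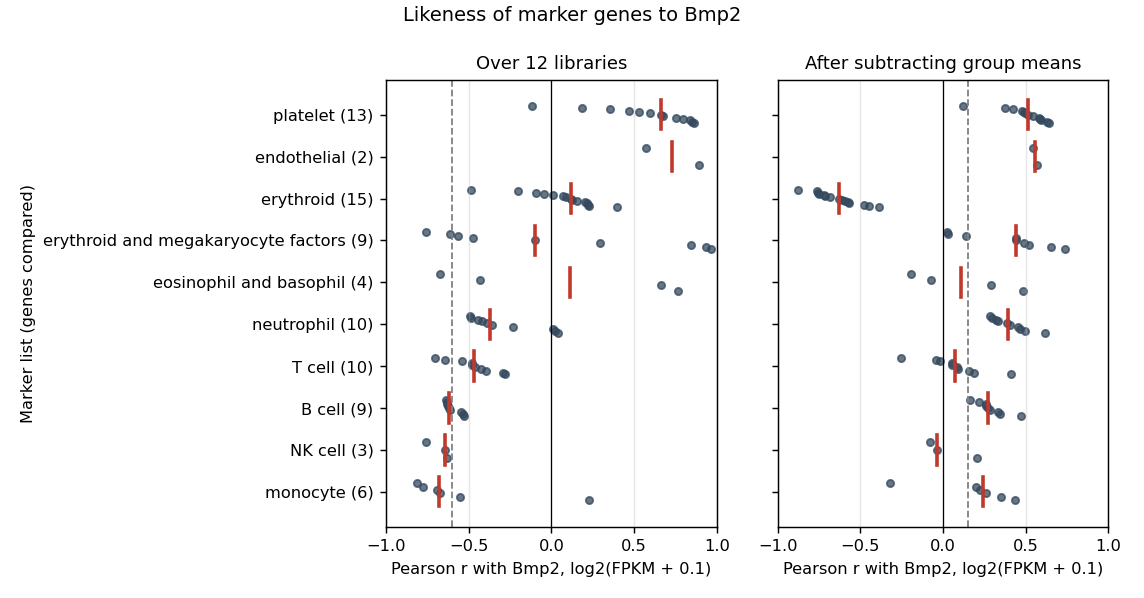
Pearson r between Bmp2 and each tested marker gene, over the 12 libraries (left) and after subtracting group means (right); points are genes, red bars list medians, and dashed lines the median of all 5526 genes (-0.60 and 0.15). Platelet genes lie to the right in both panels, and erythroid genes move from around 0.12 on the left to around -0.63 on the right.

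The regulators Gata1, Gfi1b and Tal1 were tested with the whole table. Of all genes tested, 1.27% were called higher in scMSC than in DNCB and 1.43% higher in scivMSC than in DNCB, where called means an adjusted p under 0.05 by edgeR's quasi-likelihood test with Benjamini-Hochberg adjustment and a change over 2-fold. Gata1 rose by 1.91 on the log2 scale in scMSC (SE 0.33, edgeR adjusted p = 0.000741) and by 2.13 in scivMSC (SE 0.33, adjusted p = 4.84e-05). Gfi1b, a repressor needed for platelet and red cell formation, rose by 2.29 (SE 0.48, edgeR adjusted p = 0.00271) and 2.10 (SE 0.48, adjusted p = 0.00124). Tal1, a partner of Gata1 in red cell gene control, rose by 1.58 (SE 0.37, edgeR adjusted p = 0.00504) and 1.06 (SE 0.36, adjusted p = 0.0172). These 3 were the members of the list of 9 called in scMSC against DNCB, and all 3 were also called with TMM in both comparisons. The scivMSC call of Tal1 was lost without DNCB replicate 2, DNCB replicate 3 or scivMSC replicate 3, and with limma on log2(FPKM + 1). In scivMSC against DNCB, where 62% of all genes were called lower, Fli1 and Ldb1 fell by 1.19 (SE 0.38) and 1.80 (SE 0.39), though neither was called with TMM, where Fli1 was at 0.48. The call of Fli1 was also lost without DNCB replicate 2. Nfe2, a factor of platelet formation, rose by 1.95 in DNCB against Solvent (SE 0.48, edgeR adjusted p = 0.00779), where 15.6% of all genes were called higher. The list was written with earlier results of these data known. Gata1, Gfi1b and Tal1 were singled out by their r with Bmp2 over these same libraries, so their p-values carry no separate weight.

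Few platelet genes were called between DNCB and the MSC groups on the total-count scale. Of the 13, 6 rose in DNCB against Solvent (Itgb3, Treml1, Gp9, Gp5, Gp1ba and Gp1bb), with a median log2 fold change of 0.83, beside the 15.6% of all genes called higher there. The 6 became 3 without Solvent replicate 3 and 3 with library totals without haemoglobin. In scMSC against DNCB the median was 0.0026 and 1 gene, Gp1bb, fell, beside 24.9% of all genes called lower. In scivMSC against DNCB the median was 0.36 and edgeR called 0 genes, with 2 at an unadjusted p under 0.05. Of all genes 1.43% were called higher there and 62% lower. DESeq2 called 12 higher, limma 1 lower, and edgeR with library totals without haemoglobin 6 higher. The shares of all genes called with these alternatives are not given here. With TMM scaling 4 of 13 rose in scMSC, where 8.74% of all genes were called higher, and 12 of 13 in scivMSC, where 20.6% were.

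Of 15 tested erythroid genes 1 was called on the total-count scale: Slc25a37, the mitochondrial iron importer, fell in scMSC against DNCB, where 24.9% of all genes were called lower, and was not called without scMSC replicate 2 or with TMM. In DNCB against Solvent edgeR called 0, with 2 at an unadjusted p under 0.05, where 15.6% of all genes were called higher and 4.87% lower. DESeq2 and limma also called 0 there. In scivMSC against DNCB edgeR called 0, with 3 at an unadjusted p under 0.05, where 1.43% of all genes were called higher and 62% lower. Limma on log2(FPKM + 1) called 0 and DESeq2 called 15 higher, as did edgeR with TMM, where 20.6% of all genes were called higher. The 0 on total counts became 8 higher with library totals without haemoglobin and 5 higher without DNCB replicate 3. It became 1 higher without DNCB replicate 1 or scivMSC replicate 3, with the replicate block and with limma on log2(FPKM + 0.1). The shares of all genes called by DESeq2, by limma and with these other settings are not given here. The median log2 fold change of the erythroid genes in scivMSC against DNCB was 0.47 on the total-count scale and 2.15 with TMM.

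The neighbourhood of Bmp2 on chromosome 2 showed no other gene with its pattern. There were 13 other genes of the table within 1 Mb, and 11 of them stayed under 1 FPKM in every library. The nearest, A430048G15Rik, ends 98.8 kb before Bmp2 and reached 0.0954 FPKM at most. Gpcpd1, which encodes a glycerophosphodiesterase, lies 974 kb before it and averaged 2.84 FPKM ± 1.04 in Solvent, 8.67 ± 0.431 in DNCB, 3.24 ± 0.426 in scMSC and 1.69 ± 0.560 in scivMSC (SD, n = 3 each), with r = -0.56. Shld1, a gene of the shieldin complex of DNA repair, averaged 1.27 ± 0.0434, 0.538 ± 0.151, 0.549 ± 0.254 and 0.522 ± 0.0580 FPKM in the same order, with r = -0.48. Among the 11 low genes were Chgb, Trmt6, Mcm8, Crls1, Lrrn4, Fermt1 and Hao1, with A430048G15Rik, AU019990, Gm14098 and Rpl23a-ps4.

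The other BMP ligands were almost absent from these libraries. Of the 9 analysed, Bmp3, Bmp4, Bmp5, Bmp6, Bmp7, Bmp8a, Bmp8b, Gdf5 and Gdf6, none reached 1 FPKM in any library. Bmp4, the closest relative of BMP2 among them and the highest by mean, was at most 0.130 FPKM, and it was 0.0237, 0.0514 and 0.0850 in Solvent, 0.130, 0 and 0.120 in DNCB, 0.0913, 0 and 0 in scMSC and 0.0871, 0 and 0 in scivMSC. The 4 groups overlapped. Bmp6, a ligand known for its action on hepcidin, was at most 0.0417 FPKM and listed at 0 in the 3 scivMSC libraries. Bmp10, Bmp15, Gdf2 and Gdf7 were not analysed here. Bmp2 was thus the ligand with the highest level per length in every library with MSC.

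No receptor passed the filter. The 12 receptors and co-receptors analysed were at most 0.894 FPKM, a value of the co-receptor Hjv (hemojuvelin) in scivMSC replicate 2. Bmpr1a, a type I receptor of BMP2 and the highest by mean, was 0.0279, 0.164 and 0.274 FPKM in Solvent, 0.662, 0.811 and 0.581 in DNCB, 0.213, 0.0830 and 0.195 in scMSC and 0.225, 0.0106 and 0 in scivMSC. Its 3 DNCB values lay above the 9 others, a pattern of 22.4% of all tested genes. Bmpr2, the type II receptor, was 0.307 to 0.463 FPKM in DNCB and 0.0373 to 0.180 FPKM in the 9 other libraries, the same pattern. Neither entered the test. Of the 12 extracellular inhibitors analysed, Twsg1 (twisted gastrulation) reached 1.30 FPKM in Solvent replicate 1 and the rest stayed under 1 FPKM, among them Erfe (erythroferrone), a BMP inhibitor made by red cell precursors, at most 0.0755 FPKM.

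Of 60 other BMP pathway genes analysed, 9 passed the filter and 46 stayed under 1 FPKM in every library. The 9 had r with Bmp2 from -0.77 (Tob1) to -0.40 (Id1), beside a median of -0.60 for all genes. With TMM the median r was -0.28 for the 4 intracellular inhibitors, -0.29 for the 2 targets and -0.20 for the 2 proteases, and Smad4 was at -0.68. Id1 and Pcsk7 reached the filter only through the DNCB libraries, the group with their highest mean, so they had to differ and their calls carry no weight. Among the 7 others 1 rose in DNCB against Solvent, 3 fell in scMSC and 7 fell in scivMSC against DNCB. Of these 7, Smad4, Smad7 and Smurf2 would not have passed the filter on their libraries with MSC alone, so their lower levels with MSC carry no weight. That leaves Ski, Tob1, Id2 and Furin. In DNCB against Solvent 2 of the 9 rose, with a median log2 fold change of 0.62, while 15.6% of all tested genes were called higher and 4.87% lower, and the median of all was 0.06. In scMSC against DNCB 4 of 9 fell, with a median of -1.21, where 24.9% of all genes were called lower and the median was -0.63. In scivMSC against DNCB all 9 fell, with a median of -2.33, where 62% of all genes were called lower and the median was -1.53. With TMM scaling the counts were 2 higher and 1 lower, 1 lower, and 2 lower, where 16.1% of all genes were called higher and 11.5% lower, 12.3% lower and 18.9% lower. All 3 comparisons share the DNCB libraries.

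**Figure D5:**
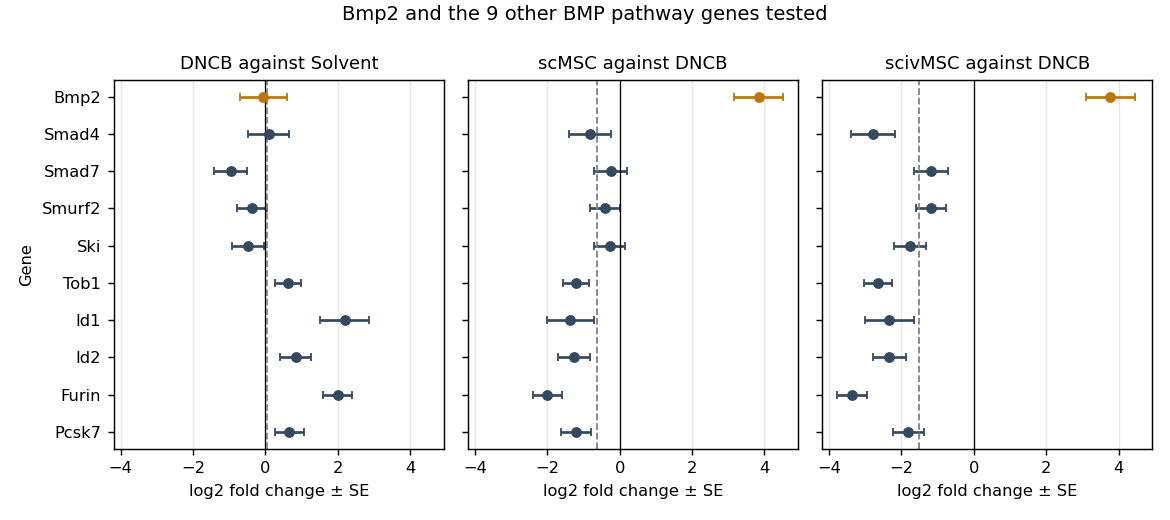
Log2 fold change with its standard error for Bmp2 (orange) and the 9 other BMP pathway genes tested, in 3 comparisons on the total-count scale; dashed lines are the medians of all 5527 genes (0.06, -0.63 and -1.53). Bmp2 stands at 3.84 and 3.77 in the MSC comparisons while all 9 others lie below 0.

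Among the SMAD transducers, Smad4, the common partner of the pathway, was 3.72, 1.76 and 2.22 FPKM in Solvent, 2.39, 3.70 and 2.10 in DNCB, 1.84, 0.982 and 1.86 in scMSC and 0.725, 0.0655 and 0.391 in scivMSC. It fell by 2.79 on the log2 scale in scivMSC against DNCB (SE 0.61, edgeR adjusted p = 0.000891), and also with TMM, by 1.36. Smad4 would not have passed the filter without its libraries without MSC, so this fall carries no weight. In scMSC against DNCB the change of Smad4 was -0.82 (SE 0.57, adjusted p = 0.302), which was not called. Smad5, which carries the BMP signal, was 0.897 to 1.75 FPKM in Solvent and 0.127 to 0.584 in the 9 other libraries, and did not pass the filter. All 3 Solvent libraries lay above the 9 others for 11.9% of all tested genes. Smad1 was at most 0.374 FPKM and Smad9 at most 0.0613.

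Of the intracellular inhibitors, Tob1, an antiproliferative protein that binds SMADs, fell by 1.21 in scMSC (SE 0.36, edgeR adjusted p = 0.0202) and fell by 2.65 in scivMSC (SE 0.38, adjusted p = 2.81e-05) against DNCB. Neither call was made with TMM, where the changes were -0.51 (edgeR adjusted p = 0.1499) and -0.95 (adjusted p = 0.0088), the latter missing the call by the 2-fold limit. The scMSC call was lost when DNCB replicate 2 or any 1 of the scMSC libraries was left out. The levels of Tob1 in DNCB were 2.87, 4.21 and 3.58 FPKM, above all libraries with MSC, which ran from 0.557 to 1.72. Every scMSC library lay below every DNCB library for 49.8% of all tested genes, and every scivMSC library for 67.9%. Ski, a corepressor of SMADs, Smad7, an inhibitory SMAD, and Smurf2, a ubiquitin ligase of SMADs and receptors, fell in scivMSC by 1.76 (SE 0.44), 1.18 (SE 0.46) and 1.19 (SE 0.42). Smurf2 and Smad7 were not called without DNCB replicate 2 or scivMSC replicates 2 or 3, nor Smad7 without DNCB replicate 1. Both would not have passed the filter without their libraries without MSC, so their falls carry no weight. None of Ski, Smad7 and Smurf2 was called with TMM, where Smad7 stood at 0.32 and Smurf2 at 0.40, above 0. In scMSC against DNCB the changes of these 3 were -0.27, -0.25 and -0.40, none called, and all 3 were above 0 with TMM.

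The target genes Id1 and Id2 encode inhibitors of helix-loop-helix transcription factors and respond to BMP signals in many cells. Id1 was 0.509, 0.299 and 0.552 FPKM in Solvent, 1.36, 3.00 and 2.09 in DNCB, 0.707, 0.553 and 1.25 in scMSC and 0.169, 0.175 and 0.910 in scivMSC. The 3 DNCB libraries were the highest 3 of the 12 for Id1, as for 22.4% of all tested genes, and Id1 entered the test through them. Its log2 fold change was 2.19 (SE 0.67) in DNCB against Solvent, -1.36 (SE 0.65) in scMSC against DNCB and -2.33 (SE 0.68) in scivMSC against DNCB, or -0.63 with TMM in the last. The first was not called when any 1 of the Solvent libraries, or DNCB replicate 2 or 3, was left out. Id2 was 5.23, 7.85 and 5.39 FPKM in DNCB, above all 6 libraries with MSC. It fell by 1.25 in scMSC (SE 0.44, edgeR adjusted p = 0.0417) and fell by 2.34 in scivMSC (SE 0.45, adjusted p = 0.000338), neither called with TMM. There the changes of Id2 were -0.56 (edgeR adjusted p = 0.0655) and -0.85 (adjusted p = 0.0057), the latter missing the call by the 2-fold limit. The scMSC call of Id2 was lost when Solvent replicate 2, scivMSC replicate 3 or any 1 of the DNCB and scMSC libraries was left out. Id3 did not pass the filter and was 0.820 to 2.14 FPKM in Solvent and at most 0.769 in the other libraries. Hamp, which encodes hepcidin, was at most 0.233 FPKM.

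The precursor proteases held the largest fall among the 9 pathway genes on the total-count scale. Furin, which cleaves BMP precursors and many other proteins, was 1.75, 1.45 and 0.968 FPKM in Solvent, 4.87, 7.16 and 4.57 in DNCB, 1.40, 1.25 and 1.54 in scMSC and 0.886, 0.281 and 0.450 in scivMSC. It rose by 2.00 in DNCB against Solvent (SE 0.39, edgeR adjusted p = 0.00157) and fell by 2.00 in scMSC (SE 0.39, adjusted p = 0.00178) and fell by 3.36 in scivMSC (SE 0.42, adjusted p = 9.75e-06) against DNCB. All 3 calls were made with TMM too, at 1.84, -1.29 and -1.84. Pcsk7, a related convertase that entered the test through its DNCB libraries, had log2 fold changes of -1.21 (SE 0.41) in scMSC and -1.81 (SE 0.42) in scivMSC against DNCB, neither called with TMM, and it overlaps other genes of the table.

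Leukocyte transcripts moved in the same comparisons. The summed FPKM of 10 neutrophil genes was 221 to 445 in Solvent, 6995 to 10978 in DNCB, 579 to 721 in scMSC and 247 to 743 in scivMSC. For 8 monocyte genes it was 9.35 to 24.5, 33.9 to 55.0, 13.4 to 14.6 and 9.49 to 10.3. For 10 T cell genes it was 110 to 186, 46.0 to 58.4, 49.1 to 79.1 and 15.1 to 34.7, and for 9 B cell genes 85.8 to 263, 26.5 to 66.9, 26.6 to 40.4 and 9.12 to 17.5. The neutrophil and monocyte sums were thus highest in the DNCB libraries, a pattern of 22.4% of all tested genes. The T cell and B cell sums were lowest in scivMSC, where 62% of all genes were called lower than in DNCB. The part of these cells in the pathway results was not tested.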

How the data were processed

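Total RNA of whole blood from 12 mice was sequenced, 1 library per mouse. The authors deposited 1 table of 25247 genes. Its 24 value columns give each library's estimated counts and FPKM, and 0 columns belong to another sample. The deposited estimated counts are whole numbers without normalization. The deposited FPKM values were scaled by the authors to gene length and library total, haemoglobin included. The submitters' processing notes name Bowtie 0.12.2, HISAT2 2.0 and StringTie 1.3.0 without roles or order. Strand use is not given in the sources used here.

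Counts were rounded and fitted with edgeR 4.0.16 (R 4.3.3, quasi-likelihood) with 4 group means over all 12 libraries, scaled by total counts. Tests took the 5527 genes that reached 1 FPKM in 3 or more libraries. A gene was called at a Benjamini-Hochberg adjusted p under 0.05 and a change over 2-fold. Standard errors come from the fitted change and its F statistic. The fit was tested on simulated counts. Replicates are separate mice of a group. Correlations used log2(FPKM + 0.1) in numpy 2.4.6. Bmp2 and all gene lists were chosen with earlier results of these data known. Named were Bmp2, pathway members that were called or the highest of their list, the 10 highest, 5 lowest and 5 highest within-group r without systematic names, genes within 1 Mb, and list leaders. Alternatives were TMM factors, library totals without haemoglobin genes, other filters, only the groups compared, a replicate block, each library left out, DESeq2 1.42.0 and limma 3.58.1. Depth was 52179764 to 65139421 estimated counts, and intervals cover counting error only. The table holds no columns of the authors' own comparisons, and no sequence was used.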

Additional observations from a re-analysis of the deposited data

How the results depend on the processing

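The higher Bmp2 level with MSC than without kept its direction under every alternative run, and its size followed the scale. With TMM the log2 fold change was 4.62 for scMSC and 5.48 for scivMSC against DNCB, 4.33 and 5.19 against Solvent, and 0.86 for scivMSC against scMSC. DESeq2 gave 4.61 and 5.52 against DNCB, 5.21 for scivMSC against Solvent and 0.91 for scivMSC against scMSC, and totals without haemoglobin gave 4.38 for scivMSC against DNCB. Limma on log2(FPKM + 1), where the pseudocount exceeds most Bmp2 values, gave 1.19 and 1.17 against DNCB and 1.18 and 1.17 against Solvent, and on log2(FPKM + 0.1) 2.99 and 3.00, then 3.00 and 3.01. Leaving out each library in turn gave 3.42 to 4.30 for scMSC and 3.35 to 4.23 for scivMSC against DNCB, 3.34 to 4.79 and 3.28 to 4.72 against Solvent, -0.51 to 0.95 for DNCB against Solvent and -0.37 to 0.13 for scivMSC against scMSC. The highest values against Solvent, and the 0.95, came without Solvent replicate 2.

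The count of pathway genes called in DNCB against Solvent, 2, became 1 with no filter and was 1 to 2 with a library left out, with 1 when any 1 of the Solvent libraries, or DNCB replicate 2 or 3, was left out. In scMSC against DNCB the 4 became 1 with TMM, totals without haemoglobin, DESeq2 and limma on log2(FPKM + 1), and 2 with no filter, and was 1 to 4 with a library left out: 1 without DNCB replicate 2 or any scMSC library, and 2 without Solvent replicate 2 or DNCB replicates 1 or 3. In scivMSC against DNCB the 9 became 2 with TMM and DESeq2, 5 with limma on log2(FPKM + 1) and 15 with no filter, where more genes were tested, and was 7 to 9 with a library left out, with 7 without DNCB replicate 2 or scivMSC replicate 2 or 3. A mean FPKM of at least 5 left neither Bmp2 nor any pathway gene. Of all genes tested, 62% were called lower in scivMSC against DNCB in the main fit and 18.9% with TMM. Shares under the other settings are not given here, so the counts there cannot be read as a result about the pathway. Of the 20 genes with the highest r, 11 were among the first 20 by Spearman rho, 13 with TMM, 8 with a mean FPKM of at least 5, where fewer genes were compared, and 14 to 20 with a library left out. Beyond these, the cause of each shift was not tested.

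Replicate numbers are shared between groups, and the labels do not say whether a number marks anything shared beyond that. Of 18 same-numbered pairs of libraries, 2 had deviations from the group means correlated over 0.1 (range -0.16 to 0.11), and 6 of 12 libraries were most like their own number. With the replicate block the Bmp2 log2 fold changes against DNCB were 4.01 (scMSC) and 3.96 (scivMSC), 4.05 and 4.00 against Solvent, 0.04 for DNCB against Solvent and -0.05 for scivMSC against scMSC, and the pathway counts were 2, 4 and 9.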
